A study of Mus musculus with 39 samples.

Results

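Klf10 and 4 related Kruppel-like factors, Klf6, Klf3, Klf7 and Klf13, were followed in sorted microglia, which are macrophages that live in the brain, across 6 groups of mice. They are 5 of the 10915 entries of the expression table, picked by gene symbol from a list that had been drawn up with earlier results of these data known. Klf10 came forward because it was low in APP23 mice given vehicle, so its levels in that comparison, and in those that use the same vehicle libraries, are given as a description, with no p-value and nothing read from whether they passed. On which comparison the other 4 were picked is not recorded, and all 5 had an entry.

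The mice were female, on a C57BL/6J background, and were either APP23 hemizygotes or wildtype littermates. APP23 mice carry a human amyloid precursor protein gene with a mutation that raises amyloid production, expressed from the Thy-1 promoter, which drives the transgene mainly in neurons. At 3 months each mouse had 4 daily intraperitoneal injections. In the 4xLPS groups all 4 were lipopolysaccharide (LPS) of Salmonella enterica at 500 µg/kg, in the 1xLPS groups the first was LPS and the others vehicle, and in the PBS groups all were vehicle. Microglia were sorted at 9 months, and polyadenylated RNA was sequenced from 6 APP23 PBS, 5 APP23 1xLPS and 4 APP23 4xLPS samples and from 9 wildtype PBS, 9 wildtype 1xLPS and 6 wildtype 4xLPS samples. The labels do not tie each library to a mouse of its own, so the errors below measure the spread between libraries, which may be partly technical.

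Kruppel-like factors are transcription factors whose zinc fingers bind GC-rich and CACCC sequences, and whose other parts recruit corepressors or coactivators. Klf10 was first known as a gene switched on early by transforming growth factor beta (TGF-beta), the cytokine that maintains the microglial state, and it represses genes through the Sin3 and histone deacetylase complex. Klf6 is an early-response factor that in mouse macrophages promotes NF-kB target genes. Klf3 represses through the CtBP corepressors, Klf7 is best known for axon growth in neurons, and Klf13 for late chemokine transcription in T cells.

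Of 12 microglial marker genes 12 were measured, at mean levels between 10.36 and 13.68, with a summed level of 16.12 to 16.29 over the 39 libraries. Among those analysed, 0 of 8 T and NK cell markers had an entry, but markers of other cells did. Measured were 5 of 8 border macrophage markers (highest mean 12.96), 2 of 8 of monocytes and neutrophils (9.10) and 4 of 8 of dendritic cells (8.53). Also measured were 2 of 7 astrocyte markers (highest mean 11.68), 3 of 7 of oligodendrocytes (10.06) and 2 of 8 of endothelial and mural cells (9.68). So were 1 of 4 B cell markers (9.38) and 2 of 7 of neurons (highest mean 6.32). Values are log2 expression as deposited after surrogate variable correction, between 3.46 and 13.80, with library means of 9.00 to 9.01, and read depth cannot be read from them. A difference of 1 is a doubling of corrected expression, and levels are compared between groups within a gene, never between genes.

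The sequences upstream of the members are shown because these factors bind GC-rich DNA and can act on each other's promoters. RefSeq windows of 250 bases before the transcription start (GRCm38.p6) were found for 4 of the 5, Klf3, Klf6, Klf7 and Klf13. The RefSeq starts differ from the gene positions given below. By those positions the Klf7 window lies inside the gene, and the Klf3 and Klf6 windows reach into theirs. Those of a pair are printed, Klf6 and Klf3. The differences of Klf6 had the sign of those of Klf10 in every comparison with PBS libraries, and the level of Klf3 varied least between groups. Capitals mark the GC box (GGGCGG), the CACCC box (CACCC) and the E-box (CACGTG), on either strand, and where motifs overlap a base is counted for each.
Klf6 (chr13:5861239-5861488, plus strand): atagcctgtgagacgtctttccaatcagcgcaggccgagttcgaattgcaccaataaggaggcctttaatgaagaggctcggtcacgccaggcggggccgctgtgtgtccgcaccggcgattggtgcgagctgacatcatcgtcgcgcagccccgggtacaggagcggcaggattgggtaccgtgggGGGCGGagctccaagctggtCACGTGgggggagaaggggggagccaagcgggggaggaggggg
Klf3 (chr5:64803271-64803520, plus strand): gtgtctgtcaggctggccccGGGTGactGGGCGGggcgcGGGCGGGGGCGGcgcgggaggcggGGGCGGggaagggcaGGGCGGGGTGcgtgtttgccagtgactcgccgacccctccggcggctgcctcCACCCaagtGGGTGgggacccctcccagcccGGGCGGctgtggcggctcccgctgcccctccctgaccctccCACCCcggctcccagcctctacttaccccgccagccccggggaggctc
The Klf3 window held 6 GC boxes and 5 CACCC boxes, with 1 base shared between them, and a GC content of 78.4%. The Klf6 window held 1 GC box, no CACCC box and 1 E-box, at 64.8% GC. The window of Klf7 had 1 GC box and 3 CACCC boxes, and that of Klf13 3 GC boxes and 1 CACCC box. Among 32851 windows of the same length, 32.7% held a GC box, 52.0% a CACCC box and 6.02% an E-box, and the median GC content was 52.4%. These matches describe the letters in the windows and say nothing of binding.

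Klf10 lies on chromosome 15 (38291463 to 38300706, minus strand, mm10) and overlaps no other annotated gene. In APP23 PBS microglia its level had a lowest value of 9.10, a median of 9.16 and a highest of 9.20, against 9.31, 9.37 and 9.44 in wildtype PBS microglia. Every APP23 PBS library was below every wildtype PBS library. How many entries had groups without overlap in this contrast was not counted, so nothing is read from the separation. The means were 9.15 ± 0.045 (SD, n = 6) in APP23 PBS and 9.38 ± 0.041 (SD, n = 9) in wildtype PBS. This is a difference of -0.23 (limma SE 0.029), or 0.855 times the wildtype level. It is the contrast on which Klf10 was chosen, in which 1.15% of all entries were called lower and 2.51% were called in either direction at an adjusted p under 0.05, so nothing is read from the call. In a bulk sample, fewer cells that express a gene and less of its RNA per cell cannot be told apart.

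After 1xLPS the genotype difference of Klf10 was -0.081 and the groups overlapped. In APP23 1xLPS microglia the 5 libraries had 9.12, 9.14, 9.15, 9.18 and 9.27, against a lowest of 9.17, a median of 9.26 and a highest of 9.36 in wildtype 1xLPS. Of the APP23 libraries, 4 were below the wildtype mean and 1, replicate 1, was above it. The means were 9.17 ± 0.060 in APP23 1xLPS (SD, n = 5) and 9.25 ± 0.054 in wildtype 1xLPS (SD, n = 9). This difference (SE 0.030) did not pass limma's test, with an adjusted p of 0.231, beside 0.156% of all entries called lower and 0.33% in either direction.

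After 4xLPS the Klf10 levels of the 2 genotypes overlapped. The APP23 4xLPS libraries had 9.15, 9.26, 9.27 and 9.28, against a lowest of 9.21, a median of 9.26 and a highest of 9.30 in wildtype 4xLPS. Of the 4 APP23 libraries, 3 lay inside the wildtype range and 1, replicate 4, lay below it. The means were 9.24 ± 0.058 (SD, n = 4) in APP23 4xLPS and 9.25 ± 0.034 (SD, n = 6) in wildtype 4xLPS. The difference was -0.015 (SE 0.035, 95% interval -0.087 to 0.057, limma adjusted p 0.931). Without APP23 4xLPS replicate 4 the difference was 0.014, the other way round. No entry of the table was called in this contrast, and 1041 had an unadjusted p under 0.05.

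**Figure D1:**
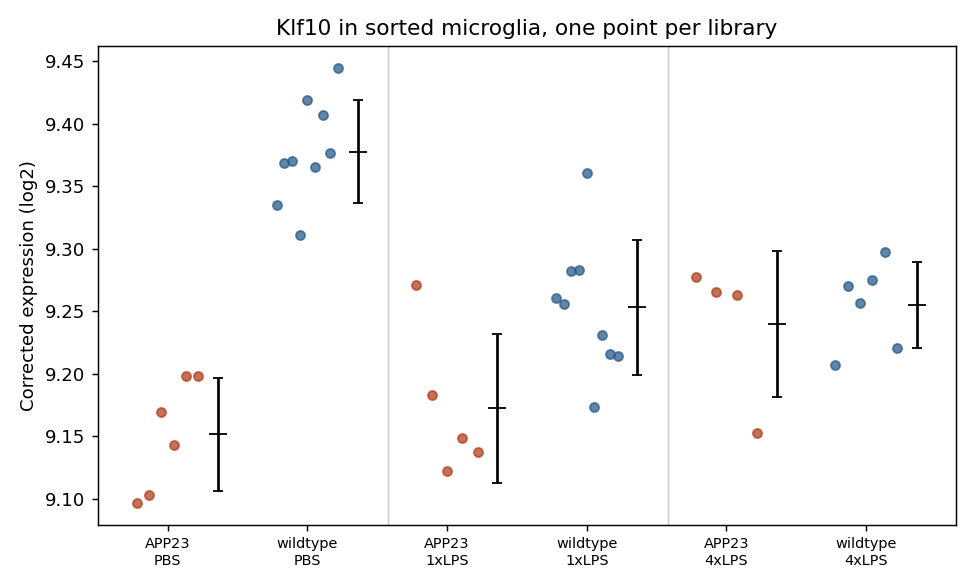
Klf10 in each library (points; orange-red, APP23; blue, wildtype), by group along the horizontal axis, with the corrected expression in log2 on the vertical axis and the group mean ± SD as black bars. After PBS, the comparison on which Klf10 was chosen, the APP23 libraries (9.10 to 9.20) sit below all wildtype libraries (9.31 to 9.44). After 4xLPS the means are 9.24 in APP23 and 9.25 in wildtype.

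Across the treatments, the Klf10 differences from PBS were negative in wildtype and positive in APP23 microglia, where that for 1xLPS was smaller than its SE. In wildtype microglia the mean was 9.38 after PBS, 9.25 after 1xLPS and 9.25 after 4xLPS. The wildtype difference between 1xLPS and PBS was -0.12 (SE 0.026), with 9 of 9 libraries under the PBS mean. It was -0.12 (SE 0.029) between 4xLPS and PBS, with 6 of 6 libraries under the PBS mean and no overlap of the groups. How many entries had groups without overlap there was not counted. Of all entries, 0.44% were called for 1xLPS and 1.51% for 4xLPS, in either direction. The PBS libraries in both are those on which Klf10 was chosen, so these values are no test of an LPS difference in it. In the comparison that leaves them out, wildtype 4xLPS against wildtype 1xLPS, the difference was 0.0016 (SE 0.029, 95% interval -0.057 to 0.061, limma adjusted p 0.992), and 0.0183% of entries were called.

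In APP23 microglia the mean of Klf10 was 9.15 after PBS, 9.17 after 1xLPS and 9.24 after 4xLPS. The difference was 0.021 (SE 0.033) between 1xLPS and PBS and 0.088 (SE 0.035) between 4xLPS and PBS. Of the 5 1xLPS libraries, 2 were above the APP23 PBS mean, and without 1xLPS replicate 1 the 1xLPS difference was -0.0039. All 4 of the 4xLPS libraries were above the APP23 PBS mean, though the lowest of them lay within the PBS range. Between 4xLPS and 1xLPS the APP23 difference was 0.067 (SE 0.037), which did not pass limma's test (adjusted p 0.564). No entry was called in any of the 3 APP23 comparisons between treatments, and 924, 832 and 1063 had an unadjusted p under 0.05.

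The interaction sets the LPS difference in APP23 microglia against that in wildtype microglia. For 1xLPS it was 0.15 (SE 0.042, 95% interval 0.060 to 0.23) and for 4xLPS 0.21 (SE 0.046, 95% interval 0.12 to 0.30). Of all entries, 0.0366% were called for the 1xLPS and 0.522% for the 4xLPS interaction. Both contain the PBS libraries of both genotypes, on which the gene was chosen, so for Klf10 they are a description and no test.

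The order of the Klf10 group means was wildtype PBS, wildtype 4xLPS, wildtype 1xLPS, APP23 4xLPS, APP23 1xLPS and APP23 PBS, from high to low. Of the 5 steps between neighbours, 2 exceeded the larger SD of the pair. These were the 0.12 between wildtype PBS and wildtype 4xLPS and the 0.067 between APP23 4xLPS and APP23 1xLPS, the second with overlapping ranges. The spread of the 6 means, 0.23, runs from wildtype PBS to APP23 PBS and is thus the difference on which Klf10 was chosen. It ranked 21 of 10915 entries, whose median spread was 0.051, and nothing is read from that rank. The residual SD of Klf10 within groups was 0.057, higher than in 76.8% of entries.

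Klf6 (chromosome 13, 5861482 to 5870394, plus strand, mm10) overlaps no other annotated gene. In APP23 PBS microglia it had a lowest value of 11.21, a median of 11.24 and a highest of 11.26, against 11.26, 11.29 and 11.31 in wildtype PBS. All 6 APP23 PBS libraries were below the wildtype PBS mean, and the 2 ranges overlapped narrowly. The means were 11.23 ± 0.020 (SD, n = 6) in APP23 PBS and 11.29 ± 0.015 (SD, n = 9) in wildtype PBS, and the difference was -0.055 (SE 0.016), or 0.963 times the wildtype level.

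After 1xLPS, Klf6 had 11.23, 11.23, 11.27, 11.27 and 11.28 in the APP23 libraries, against a lowest of 11.19, a median of 11.24 and a highest of 11.29 in the wildtype libraries. After 4xLPS it had 11.24, 11.27, 11.27 and 11.32 in the APP23 libraries, against 11.20, 11.24 and 11.28 in the wildtype libraries. The groups overlapped at both doses. The genotype difference was 0.012 (SE 0.016) after 1xLPS and 0.038 (SE 0.019) after 4xLPS, and limma gave adjusted p-values of 0.810 and 0.537.

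The wildtype LPS differences of Klf6 were -0.043 (SE 0.014) for 1xLPS and -0.048 (SE 0.016) for 4xLPS against PBS, with 8 of 9 and 6 of 6 libraries below the PBS mean. In APP23 microglia they were 0.024 (SE 0.018) and 0.045 (SE 0.019). The interactions were 0.067 (SE 0.023) for 1xLPS and 0.093 (SE 0.025) for 4xLPS. None of these passed the test at the 24 residual degrees of freedom used: limma's adjusted p-values were 0.142 and 0.0986 in wildtype, 0.760 and 0.584 in APP23, and 0.208 and 0.0807 for the interactions. With 33 degrees of freedom, which counts directions in which the corrected values do not vary, the 2 wildtype differences and both interactions of Klf6 passed, with adjusted p-values between 0.0087 and 0.045.

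Klf10 and Klf6 had differences of the same sign in 8 of the 11 contrasts, which share libraries. These include every contrast with the PBS libraries on which Klf10 was chosen. Both had a negative genotype difference after PBS, negative LPS differences in wildtype and positive ones in APP23 microglia. For Klf10 the APP23 1xLPS difference, 0.021 (SE 0.033), was smaller than its SE. Signs were opposed in the genotype contrasts after 1xLPS (Klf10 -0.081, Klf6 0.012) and 4xLPS (-0.015 and 0.038). They were also opposed in wildtype 4xLPS against 1xLPS (0.0016 and -0.0055). How many entries match Klf10 in sign as often was not counted. Their levels correlated with r = 0.44 across the 39 libraries and with r = -0.0069 once each group's mean was removed. The points share the surrogate variable correction. The spread of the Klf6 group means, 0.055, was near the median of all entries, 0.051. That of Klf10, 0.23, is the PBS difference on which it was chosen.

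**Figure D2:**
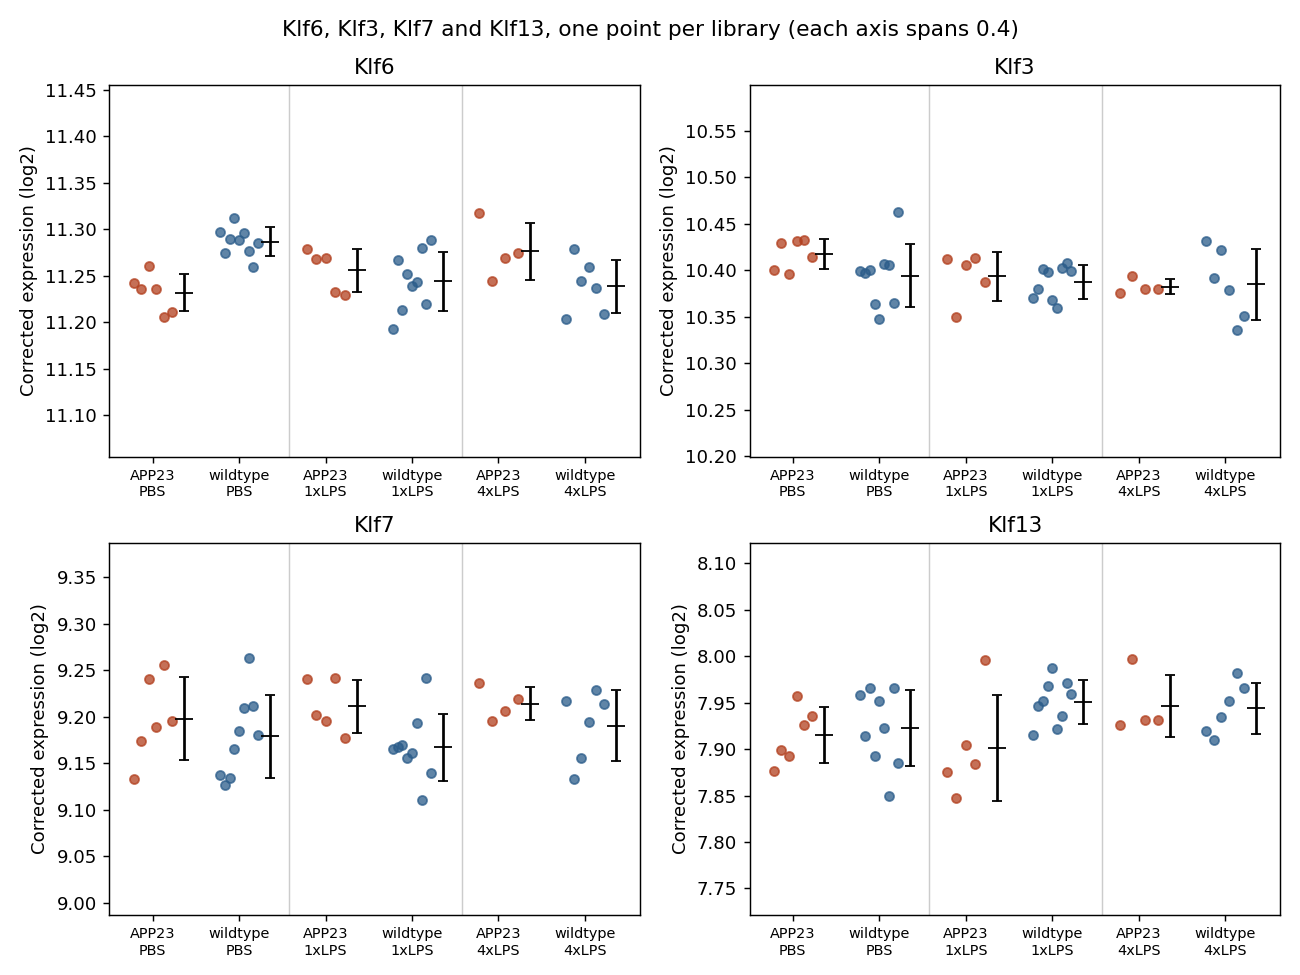
Klf6, Klf3, Klf7 and Klf13 in each library (points; orange-red, APP23; blue, wildtype), by group along the horizontal axis, with corrected expression in log2 on vertical axes of equal span and group mean ± SD as black bars. Klf6 averages 11.23 in APP23 PBS and 11.29 in wildtype PBS, and the groups of Klf7 and Klf13 overlap throughout.

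Klf3 (chromosome 5, 64803388 to 64832901, plus strand, mm10) shares part of its span with 2 other annotated transcripts. Whether reads were counted by strand is not known, so theirs cannot be fully separated from those of Klf3. Its group means were 10.42, 10.39 and 10.38 in APP23 PBS, 1xLPS and 4xLPS, against 10.39, 10.39 and 10.39 in wildtype. The range over all libraries was 10.34 to 10.46. In APP23 microglia the 4xLPS libraries, at 10.38, 10.38, 10.38 and 10.39, all lay below the PBS libraries, which had a lowest value of 10.40, a median of 10.42 and a highest of 10.43. That difference was -0.035 (SE 0.020), the largest of Klf3 in size, in a contrast where no entry was called. Its unadjusted p in limma was 0.096, at rank 1437 of 10915 entries. How many entries had groups without overlap there was not counted, so nothing is read from the separation. The other 10 contrasts of Klf3 had overlapping groups or are interactions. Its spread of group means, 0.035, was narrower than that of 73.2% of entries.

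Klf7 (chromosome 1, 64029447 to 64122282, minus strand, mm10) hosts a miRNA and overlaps 2 noncoding genes on the other strand. Its group means were 9.20, 9.21 and 9.21 in APP23 PBS, 1xLPS and 4xLPS, against 9.18, 9.17 and 9.19 in wildtype. All 3 APP23 means were above all 3 wildtype means, with overlapping libraries in every pair. The genotype difference was 0.019 (SE 0.023) after PBS, 0.044 (SE 0.025) after 1xLPS and 0.024 (SE 0.029) after 4xLPS.

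Klf13 (chromosome 7, 63886351 to 63938915, minus strand, mm10) overlaps a noncoding and a protein-coding gene on the other strand. Its group means were 7.91, 7.90 and 7.95 in APP23 PBS, 1xLPS and 4xLPS, against 7.92, 7.95 and 7.94 in wildtype. After 1xLPS the APP23 libraries had 7.85, 7.88, 7.88, 7.90 and 7.996, against a lowest of 7.92, a median of 7.95 and a highest of 7.99 in wildtype 1xLPS. Of the 5 APP23 libraries, 4 were below every wildtype library and the fifth was above them all. The difference was -0.049 (SE 0.024). It was -0.073 without APP23 1xLPS replicate 5 and -0.036 without replicate 2.

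Over Klf3, Klf7 and Klf13 and the 11 contrasts, the 33 differences lay between -0.049 and 0.045. None was called by limma, the lowest adjusted p was 0.372, and 1 of the 33 had an unadjusted p under 0.05, the Klf13 difference after 1xLPS. In no neighbouring pair of their ordered group means did the step exceed the larger SD, and the same held for Klf6. Between these 3 genes and Klf10 the correlations over 39 libraries were between -0.12 and 0.11.

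**Figure D3:**
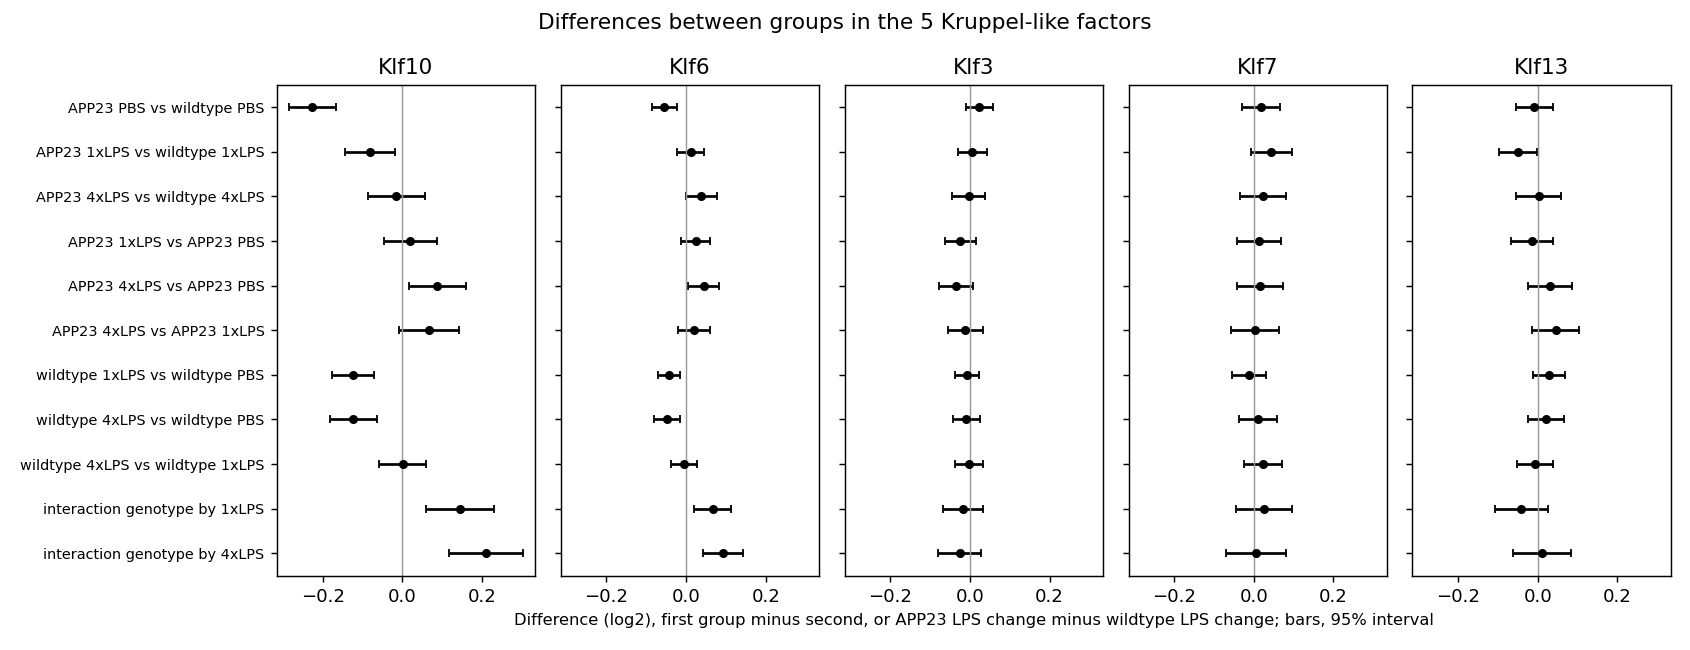
Differences of the 5 factors in each of the 11 contrasts, with log2 units on the horizontal axis, contrasts down the vertical axis and bars for limma's 95% interval. For interactions the value is the APP23 LPS difference minus the wildtype one. Klf10 shows the widest set of values, from -0.23 to 0.21, both ends from contrasts with the PBS libraries on which it was chosen. Klf3, Klf7 and Klf13 stay between -0.049 and 0.045.

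Of 16 other Kruppel-like and Sp factors, 8 had an entry, namely Klf2, Klf11, Klf12, Klf16 and the related GC-box binding factors Sp1, Sp2, Sp3 and Sp4. In the 11 contrasts limma called 0 of them. After PBS, 5 of the 8 were higher in APP23 and 3 had an unadjusted p under 0.05 in limma, beside 18.1% of all entries. Klf11, the closest relative of Klf10 and also inducible by TGF-beta, lay between -0.030 and 0.064 in all contrasts. Klf2, known for holding blood cells and endothelium quiescent, differed by 0.063 (SE 0.019) after PBS with an adjusted p of 0.0666 in limma. Sp2 was at -0.073 after PBS and 0.085 in the 4xLPS interaction, the signs that Klf10 and Klf6 also had there. Klf2 and Sp2 were picked out after their values were seen.

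**Figure D4:**
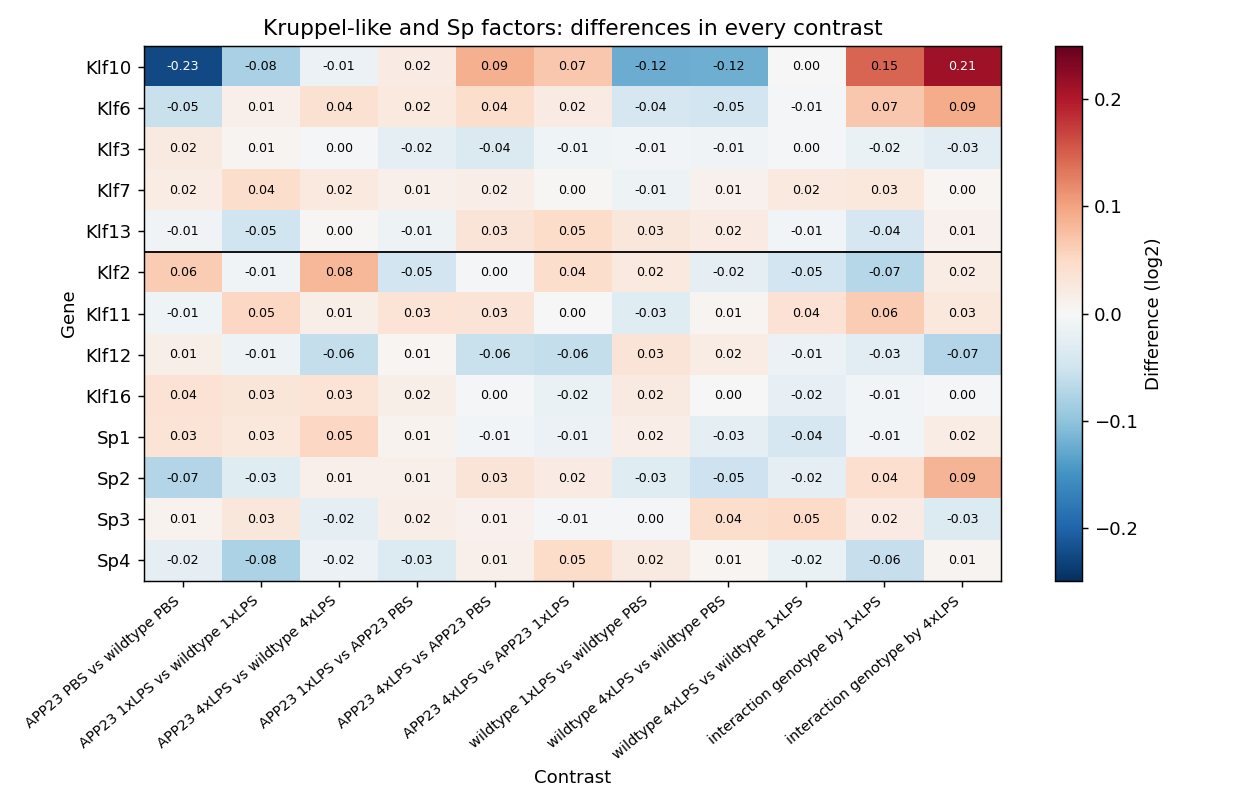
Differences (log2, colour and printed value) of the 5 factors (above the line) and of 8 other Kruppel-like and Sp factors (below it), by gene down the vertical axis and contrast along the horizontal axis. The strongest colours are those of Klf10, -0.23 in APP23 PBS against wildtype PBS and 0.21 in the 4xLPS interaction. Both hold the PBS libraries on which Klf10 was chosen. The other factors lie between -0.079 and 0.093.

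Genes around Klf10 in its pathway were counted in lists drawn up with earlier results known. Of 24 genes of TGF-beta signalling, among them ligand, receptors, Smads and their inhibitors, 20 were measured, and limma called 0 in any of the 11 contrasts. After PBS their median difference was 0.0060, beside 0.0021 over all entries, with 11 of 20 higher in APP23. All 16 corepressor genes were measured, among them Sin3a, Hdac1 and Ctbp1, and 0 were called, with a median of 0.0028 after PBS and 9 of 16 higher in APP23. Of 10 genes reported as targets of these factors, 8 were measured and 0 were called, with a median of 0.0033.

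Further lists hold genes that share early induction, daily rhythm or glucocorticoid control with members of the family. In APP23 PBS against wildtype PBS, 1 of 15 measured immediate early and dissociation response genes was called higher, beside 1.36% of all entries, and 0 lower, with a median difference of 0.048 and 12 of 15 higher. Fos, a subunit of AP-1, was at 9.39 ± 0.12 (SD, n = 6) in APP23 PBS and 9.12 ± 0.13 (SD, n = 9) in wildtype PBS, a difference of 0.27 (adjusted p 0.0225 in limma over all entries). Among 17 clock genes 1 was called each way. Per1, a clock repressor, was higher by 0.21 (adjusted p 0.0329 in limma), and Bhlhe41, another repressor of clock genes, differed by -0.15 (adjusted p 0.0357 in limma). Of 12 glucocorticoid-induced genes, 2 were called higher, Per1 again and Ddit4, an inhibitor of mTOR, which rose by 0.18 (adjusted p 0.0354 in limma). In the other 10 contrasts limma called 0 genes of these 3 lists. Without 1 library at a time the call held in 38 of 39 refits for Fos, 34 for Per1, 30 for Bhlhe41 and 30 for Ddit4, and the losses all came from leaving out a library of either PBS group.

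The summed level of the immediate early and dissociation list had a lowest, median and highest of 13.98, 14.02 and 14.05 in APP23 PBS, against 13.88, 13.94 and 14.04 in wildtype PBS. Its part in the Klf10 difference was not tested. In the same comparison all 12 microglial markers had positive differences, 0 of them called, with a median of 0.023, against 0.0021 over all entries, and a summed range of 16.18 to 16.22 in APP23 PBS, against 16.12 to 16.20 in wildtype PBS. Ccr2, 1 of 2 measured among 8 monocyte and neutrophil markers, was called lower in APP23 PBS, with a difference of -0.23 (adjusted p 0.0329 in limma). The other measured one had a positive difference, and the summed level of the 2 ranged from 9.15 to 9.34 in APP23 PBS, against 9.28 to 9.56 in wildtype PBS. All 4 measured of 8 dendritic cell markers were below wildtype, with a median of -0.045, 0 of them called, and a summed range of 9.77 to 9.84 in APP23 PBS, against 9.82 to 9.91 in wildtype PBS. Stab1, 1 of 5 measured of 8 border macrophage markers, was called higher, by 0.067 (adjusted p 0.0336 in limma). Of those 5, 3 had positive differences, with a median of 0.015, and their summed level was 13.09 to 13.16 in APP23 PBS, against 13.02 to 13.09 in wildtype PBS. Without 1 PBS library the call of Ccr2 was lost in 4 refits and that of Stab1 in 7. The part of these cells in the Klf10 values was not tested.

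The genes whose levels ran most like Klf10 over the 39 libraries were found by Pearson correlation of log2 values with each of the other 10914 entries. The 5 highest were Dock9 (r = 0.73), Pla2g4a (0.73), Tmem71 (0.72), H2-DMb2 (0.71) and Rinl (0.71). Their correlations after removal of group means were 0.32, 0.41, 0.46, 0.40 and 0.31. The 5 lowest were Tmem245 (r = -0.73), Rhob (-0.73), Mid1 (-0.71), Nop10 (-0.71) and Atp5g3 (-0.70), and after removal of group means -0.43, -0.47, -0.11, -0.48 and -0.059. Across all entries the 5th and 95th percentiles of the correlation with Klf10 were -0.45 and 0.41. That correlation includes the PBS difference on which Klf10 was chosen. After removal of group means the percentiles were -0.36 and 0.36. Dock9, Rinl, Mid1 and Atp5g3 then lay inside them and the other named genes outside. Dock9, an activator of the small GTPase Cdc42, had 10.08 ± 0.037 (SD, n = 6) in APP23 PBS and 10.28 ± 0.040 (SD, n = 9) in wildtype PBS, a 4xLPS difference of 0.13 in APP23 microglia and one of -0.17 in wildtype microglia. It differed from Klf10 elsewhere, with a genotype difference of 0.099 after 4xLPS, where Klf10 had -0.015, and -0.080 between wildtype 4xLPS and 1xLPS, where Klf10 had 0.0016. Rhob, a small GTPase of endosomes, ran the other way, at 10.49 ± 0.022 in APP23 PBS and 10.38 ± 0.038 in wildtype PBS (SD, n = 6 and n = 9).

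In the authors' deposited table of co-expression modules, all 5 factors have a row. Klf10 and Klf6 are both in the module named yellow, which holds 1065 genes, 10.6% of those with a named module. In the authors' deposited table Klf6 correlates with that module at r = 0.56, and Klf10 at 0.38, below its value for the turquoise module, 0.46, while its lowest is -0.68 for red. Klf3 is in green (r = 0.53 with its module), Klf7 in pink (0.24) and Klf13 in turquoise (0.25), per the authors' deposited table. The header of the authors' deposited table names a trait 1xLPS.pos, which the labels do not define. In the authors' deposited table its correlation is -0.34 with Klf10, -0.31 with Klf13, 0.22 with Klf7, 0.014 with Klf6 and -0.0047 with Klf3. It may draw on the PBS libraries on which Klf10 was chosen, so nothing is read from the Klf10 value.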

How the data were processed

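Smart-seq libraries of sorted microglia had been sequenced and processed by the submitters. Per the submitters' processing notes, the build was mm10 and the tools included STAR, HOMER, FastQC, limma and DESeq2, with no role stated. The authors deposited normalized log values after surrogate variable analysis, per the sheet name, and these were read as log2, though the base is not stated. A second table deposited by the authors gives module correlations as score columns with their p-values. One column that no label matched was not used, and depth is unknown.

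For all 10915 entries limma 3.58.1 in R 4.3.3 estimated 6 group means over 39 libraries, moderated with a mean-variance trend. The residuals spanned 24 directions in place of 33, so the 9 empty ones were added as covariates, kept orthogonal to the group means, and 24 degrees of freedom used. Every difference is then one of group means, also when a library is left out. P-values were adjusted by Benjamini-Hochberg over all entries of a contrast and called under 0.05. There was no filter or pseudocount. The fit was tested on simulated data. Alternatives were 33 degrees of freedom, no trend, robust moderation, a filter on low values, median centring, a replicate block, the groups of a contrast alone, and each library left out.

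The members and gene lists were chosen with earlier results of these data known. Named were all 5 members, up to 4 called genes of each list, and the 5 genes most and 5 least correlated with Klf10. Other family members were to be named if called, and none was. Outside that rule, Klf11 was named as the closest relative of Klf10, and Klf2 and Sp2 after their values were seen. Positions are from GENCODE M21 (mm10) and promoters from RefSeq. Python 3.11.15 and matplotlib 3.10.9 drew the figures. Lanes are not assigned to samples in the labels, so lane and group cannot be told apart.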

Additional observations from a re-analysis of the deposited data

Results flagged for a closer look

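In 30 combinations of a factor and a group, 2 libraries lay apart from the rest of their group by Dixon's criterion, which flags about 1 group in 20 by chance. Klf10 was 9.15 (9.15291) in APP23 4xLPS replicate 4, and the nearest of the other 3 libraries was 9.26. Klf13 was 7.996 (7.99646) in APP23 4xLPS replicate 2, and the nearest was 7.93. The 4xLPS interaction of Klf10 was 0.21 (0.211244), the APP23 difference between 4xLPS and PBS minus the wildtype one. It contains both PBS groups, whose gap is the reason the gene was chosen, so it is given as a value and not as a test of a different response. The interaction lay between 0.20 and 0.24 in the 39 refits without 1 library, and nothing is read from whether it passed the threshold.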

How the results depend on the processing

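Every Klf10 difference kept its sign with 33 degrees of freedom, without the trend, with robust moderation, with the low-value filter (which removed Klf13), with median centring, with the block and in the groups of the contrast alone; omitting trend or adding robustness changed no count by over 1.5 times. Counts of called genes below follow the order PBS, 1xLPS and 4xLPS genotype contrasts, APP23 1xLPS, 4xLPS (against PBS) and 4xLPS against 1xLPS, the same in wildtype, then the 1xLPS and 4xLPS interactions. They were 274, 36, 0, 0, 0, 0, 48, 165, 2, 4 and 57. With 33 degrees of freedom they were 1050, 474, 171, 78, 27, 162, 660, 977, 72, 370 and 579. The groups of the contrast alone, which leaves the empty directions uncorrected in all but the 1xLPS interaction, gave 886, 342, 0, 27, 0, 2, 471, 830, 32, 320 and 409. In both, 2 members were called after PBS, in wildtype 1xLPS and 4xLPS and in both interactions. The filter gave 2, 1, 5 and 0 for APP23 1xLPS, APP23 4xLPS, wildtype 4xLPS against 1xLPS and the 1xLPS interaction, and centring 1 for APP23 1xLPS, each with 2 members called after PBS. Deviations of same-numbered libraries from their group means correlated with r of -0.32 to 0.28. Between APP23 4xLPS and 1xLPS, 3 of 4 such pairs exceeded 0.1. The values are already corrected, so whether replicate numbers pair the libraries cannot be told. The replicate block gave 103, 4, 4, 1, 1, 28, 42, 0, 9 and 2 genes outside the 4xLPS genotype contrast, and 0 members in wildtype 1xLPS and 4xLPS and in the 4xLPS interaction. With it Bhlhe41, Ddit4, Ccr2 and Stab1 were not called.

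Leaving out 1 library at a time (39 refits), the Klf10 difference was -0.24 to -0.22 after PBS, -0.11 to -0.067 after 1xLPS and -0.028 to 0.014 after 4xLPS between genotypes. In APP23 it was -0.0039 to 0.033 for 1xLPS, 0.076 to 0.12 for 4xLPS and 0.055 to 0.096 between them, and in wildtype -0.14 to -0.11, -0.13 to -0.11 and -0.0083 to 0.015. The interactions were 0.12 to 0.16 and 0.20 to 0.24. Klf6 changed sign between the wildtype doses (-0.014 to 0.0015, above 0 without wildtype 1xLPS replicate 9 or wildtype 4xLPS replicates 1 or 6). Klf3 changed sign in all wildtype treatment comparisons and in the genotype contrast after 4xLPS (-0.013 to 0.0066). Klf7 did so between the APP23 doses and in the 4xLPS interaction (-0.0080 to 0.016). For Klf13 it happened in the 4xLPS genotype contrast (-0.014 to 0.010), APP23 1xLPS against PBS and the 4xLPS interaction. Members called ranged from 1 to 2 after PBS, the second being Klf6 in 8 refits, and from 0 to 1 in wildtype 1xLPS (0 without 1xLPS replicate 7), wildtype 4xLPS (0 without 4xLPS replicates 1 or 6 or PBS replicate 9) and the 4xLPS interaction (0 without APP23 4xLPS replicates 1, 2 or 3 or APP23 PBS replicate 1). The other member in these counts is Klf10, chosen on the PBS libraries, so they support nothing about it. Genes called ranged, in the order above, from 118 to 295, 0 to 42, 0 to 8, 0 to 2, 0 to 1, 0 to 5, 20 to 56, 67 to 178, 0 to 6, 0 to 18 and 16 to 68.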
